A study of Arabidopsis thaliana with 3 samples.

Results

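Unfolded protein binding genes encode the molecular chaperones and folding helpers of the plant cell. Of the 21225 nuclear genes of Arabidopsis thaliana that carried a gene ontology (GO) annotation in the deposited GRF5 peak lists, 90 were annotated with the term unfolded protein binding, and these 90 genes are described here. Genes also annotated to the mitochondrial inner membrane were to be left out, which removed 0 genes. The annotation is written only on peak entries, so the members were selected on having a called peak as well as on the term, and each of the 90 had at least 1 GRF5 peak in at least 1 list by construction. Chaperone genes without any peak were therefore not analysed here. The other 21135 GO-annotated genes entered through a called peak in the same way and are used for comparison.

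The peaks came from DNA affinity purification sequencing, in which purified GRF5 protein, a growth-regulating transcription factor, is mixed with sheared genomic DNA and the recovered fragments are sequenced. The series held 3 libraries: GRF5 replicates 1 and 2, made with recombinant His-tagged protein from Escherichia coli and an antibody against GRF5, and 1 input library. Root DNA of wild-type (Col-0) plants held at 0.2 mM nitrate for 3 days was used, and while the protocol of the input library states the same, its treatment is labelled control. Purified DNA carries no chromatin, so the peaks describe what GRF5 protein recovered from bare DNA relative to the input, and a pull-down lacking GRF5 was not analysed here. The design text of the series also speaks of a chromatin assay, while library titles and protocols give DNA affinity purification, which is followed here.

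Chaperones bind proteins that have not reached, or have lost, their folded state. HSP70 proteins hold exposed hydrophobic stretches and are driven by ATP, J proteins deliver clients to them, and GrpE proteins exchange their nucleotide. HSP90 acts late in folding, chaperonins (CCT in the cytosol, Cpn60 with Cpn10 in organelles) enclose proteins in a chamber, and prefoldin passes nascent chains to CCT. Small heat shock proteins keep unfolding proteins from aggregating, calreticulins hold glycoproteins in the endoplasmic reticulum, and Clp ATPases unfold proteins for degradation.

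Of the 90 genes, 80 had a peak in replicate 1, 78 in replicate 2 and 68 in both lists. Strength is given throughout as the authors' own fold enrichment of each peak, a ratio of its signal to the background set from the input. A peak counts as shared when the peaks of both lists cover each other over 50% or more of the shorter of the pair and are annotated to the same gene. Since an annotated peak chose the genes, and since only a pair of libraries against 1 input exists, counts and levels are given as a description with no test. The median pileup of the members' shared peaks was 88 fragments in replicate 1 and 81 in replicate 2, and since its scaling is not stated, it does not give the depth of the libraries.

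GRF5 peaks that recurred in both libraries were found at 61 of the 90 unfolded protein binding genes (67.8%), against 68.9% of the other GO-annotated genes. A shared peak in the promoter, by the authors' annotation, was present at 41 members (45.6%), against 44.8% of the others. Shared peaks over a coding exon or intron were present at 38 members (42.2%), against 40.3% of the others. Counted over all nuclear protein-coding genes, including those without any peak, a shared peak was present at 54.4%, a shared promoter peak at 35.2% and one over a coding exon or intron at 32.2%. The protein-coding genes were not selected on a peak, so their lower shares are not a like comparison for the members. The members' shares lay close to those of the other GO-annotated genes. Against these, the list did not stand apart in how often its genes carried a shared peak. For 8 further member peaks, at 8 genes, the 2 lists held a paired peak that was annotated to the member in 1 list only, and these are not counted as shared. With the gene taken from either list, a choice made after seeing the data, 65 members (72.2%) had a shared peak, against 71.6% of the others.

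**Figure D1:**
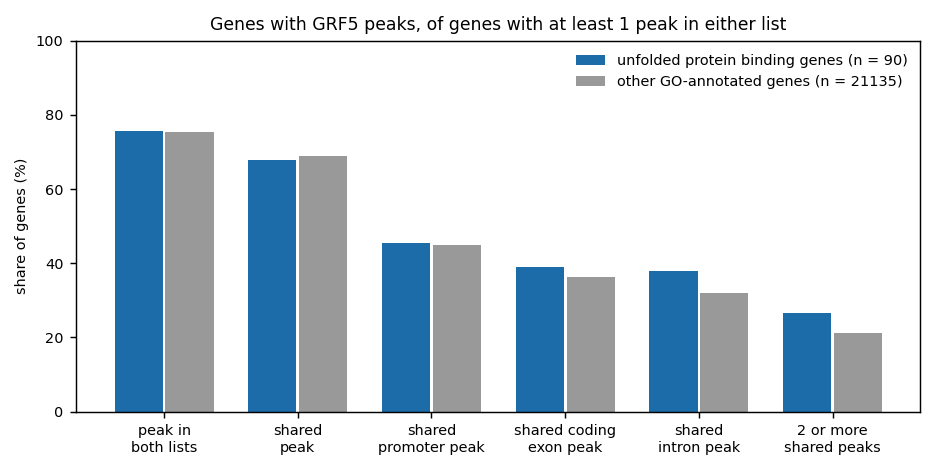
Bars give the share of genes, in percent, with each kind of GRF5 peak, for the 90 unfolded protein binding genes (blue) and the 21135 other GO-annotated genes (grey); every gene had a peak in at least 1 list. The bars stand at 67.8% and 68.9% for any shared peak. They differ most for a shared intron peak, with 37.8% and 32.1%, and for 2 or more shared peaks, with 26.7% and 21.3%.

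The location of the shared peaks was also close to that of the other genes. Introns carried a shared peak in 34 members (37.8%), against 32.1% of the others. Coding exons carried one in 35 members (38.9%), against 36.4% of the others. At least 2 shared peaks were present at 24 members (26.7%), against 21.3% of the others. A shared promoter peak with none in the gene body was the pattern of 23 members (25.6%), against 28.6% of the others. A shared body peak with none in the promoter was that of 20 (22.2%), against 24% of the others, and 18 members (20%) had both, against 16.2% of the others. Within a single list, shared or not, body peaks were more frequent at members. In replicate 1 they were at 62 members (68.9%), against 56.3% of the others, and in replicate 2 at 55 (61.1%), against 54%. This difference was not tested.

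Peak strength was that of ordinary GRF5 peaks, with a few exceptions. The strongest shared peak of a member had a median fold enrichment of 1.9 (quartiles 1.71 and 2.07), against 1.92 (1.77 and 2.11) for the others. Of the 61 members with a shared peak, 28 lay above that median of the others. A mean of at least 3-fold was reached by 2 members (3.28%), against 2.44% of the others. At a mean of 2.5-fold or more stood 7 members (11.5%), against 6.12% of the others. These 7 were CLPX, AT4G18810, AIP3, AT1G59725, AT3G11870 and the neighbours Hsp81.4 and HSP81-3, which share 1 peak. Only CLPX and AT4G18810 reached 2.5-fold in both lists, and the rest stood below it in replicate 2. At 2-fold or more stood 23 members (37.7%), against 38.3% of the others. For the strongest shared promoter peak, 26.8% of the members reached 2-fold, against 35% of the others. At 2.5-fold these promoter shares were 14.6% and 4.89%.

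**Figure D2:**
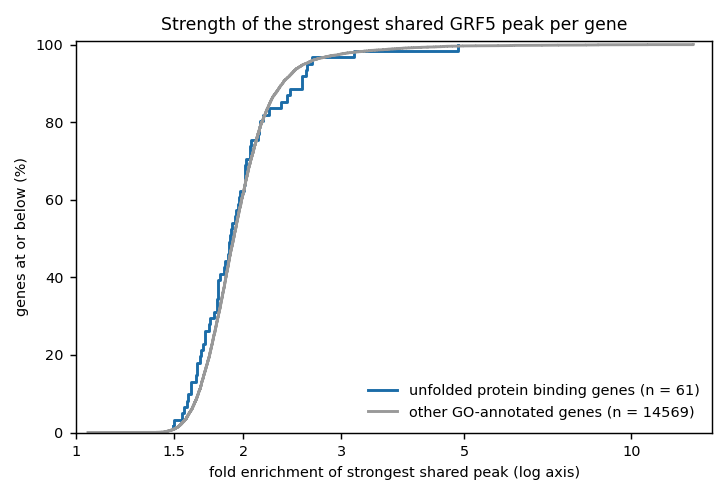
Cumulative share of genes, in percent, against the mean fold enrichment of their strongest shared GRF5 peak on a log axis, for the 61 unfolded protein binding genes with a shared peak (blue) and the 14569 other GO-annotated genes with one (grey). The curves run together, with medians of 1.9 and 1.92.

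The counts per class below are small and are to be read beside the 68.9% of the other genes with a shared peak and the 44.8% with a shared promoter peak. The Clp genes held the strongest peak of all members. CLPX (AT5G53350), which encodes an ATPase that feeds unfolded proteins into the Clp protease, had a promoter peak enriched 4.98-fold in replicate 1 and 4.76-fold in replicate 2. Its pileup was 241 and 216 fragments and its −log10 q 84.4 and 72.2 in the 2 lists. The peak ran on chromosome 5 from 21641479 to 21643059 in replicate 1 and from 21641479 to 21642142 in replicate 2 (TAIR10), and the summits lay 2 bp apart. CLPX ranked above 99.6% of all GO-annotated genes with a shared peak. The same peak covered coding exons and introns of the neighbour AT5G53340 and the promoter of MIR8181, so it is not a peak of the CLPX promoter alone. A second, weaker shared peak lay over a CLPX coding exon and intron, with a mean of 1.88.

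AT1G33360, another ATP-dependent Clp protease gene, had a promoter peak with 2.42-fold enrichment in each list, with summits at the same base. It lay on chromosome 1 from 12089922 to 12090301 and over coding sequence of the neighbour AT1G33350. The third gene of this class, AT5G49840, had peaks in both lists, but the nearest of them were 616 bp apart. Of the Clp class, 2 of 3 genes therefore had a shared peak.

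All 6 HSP90 genes in the lists had a shared promoter peak, beside 44.8% of the other genes. Of the 6, 2 owed it to the same peaks, and the promoter peaks of CR88, Hsp89.1 and HSP81-2 were also annotated to a neighbouring gene. Hsp81.4 (AT5G56000) and HSP81-3 (AT5G56010), neighbouring genes of cytosolic HSP90, shared a peak annotated to the promoters of both on chromosome 5 from 22680796 to 22681620. Its fold enrichment was 2.67 in replicate 1 and 2.44 in replicate 2. A second peak, from 22679740 to 22680475, lay over coding sequence of Hsp81.4 and the promoter of HSP81-3, with 1.73- and 2.3-fold enrichment. HSP81-2 (AT5G56030), a close copy nearby, stood lowest in the class with 1.62- and 1.6-fold. These 3 genes are near-identical in coding sequence, and the authors' treatment of reads that match several copies is not given in the sources used here, so peaks over coding sequence may share reads.

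The organelle HSP90 genes had promoter peaks as well. CR88 (AT2G04030), the chloroplast HSP90, had values of 2.08 and 1.95, and the same peak was annotated to the promoter of RGF3. SHD (AT4G24190), the HSP90 of the endoplasmic reticulum, had 1.85- and 1.62-fold in a peak annotated to no other gene in either list. Hsp89.1 (AT3G07770), the mitochondrial form, carried 3 shared peaks. The strongest of these lay over coding exons and introns, with 2.25- and 2.01-fold, and the promoter peak had 1.85- and 1.57-fold. In each of the 6 genes, 2 of them under the same peak, replicate 1 gave the higher value of the strongest shared peak. Of all 89 shared member peaks, 48 were higher in replicate 1. HSP81-2 also had a 1.88-fold peak in replicate 2 that was not shared.

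HSP70 and BiP genes had a shared peak in 5 of 12 cases and a shared promoter peak in 4, where the others stood at 68.9% and 44.8%. HSC70-1 (AT5G02500), the abundant cytosolic form, had a peak over a coding exon and intron with 2.37- and 2.08-fold enrichment on chromosome 5 from 555735 to 556033. It also had a promoter peak with 1.9- and 1.87-fold, although the summits of that broad peak lay 904 bp apart. HSP70T-2 (AT2G32120), a truncated HSP70, had 2.08- and 2.03-fold over a coding exon and intron. Values for the organelle forms were 2.08- and 1.79-fold for chloroplast cpHsc70-2 (AT5G49910) and 1.84- and 1.76-fold for mitochondrial mtHsc70-1 (AT4G37910), each in the promoter and over coding sequence of a neighbour. The other mitochondrial form, MTHSC70-2 (AT5G09590), stood lowest in the class with 1.82- and 1.48-fold, also in the promoter and over a neighbour.

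The 3 BiP genes, which encode the HSP70 of the endoplasmic reticulum, had no shared peak. BIP1 had a promoter peak of 2.05-fold and a body peak of 2.06-fold in replicate 2 alone. BIP3 had a 1.99-fold coding exon peak in replicate 2 alone, and BIP2 a 1.51-fold promoter peak in replicate 1 alone. Hsp70b (AT1G16030), a heat-induced cytosolic form, had 3 peaks in replicate 1, up to 1.84-fold, and none annotated to it in replicate 2. The 1.79-fold peak over its coding exon was nevertheless paired with a 2.53-fold peak in replicate 2 that was annotated to neighbouring genes alone, with summits at the same base. HSP70 (AT3G12580) had a body peak in replicate 1 and a promoter peak in replicate 2, which lay 1992 bp apart. By annotation, 2 of the 12 genes had a peak in replicate 1 only and 4 in replicate 2 only, beside 13.6% and 11% of the others.

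Among the J proteins, the largest class, 14 of 21 genes had a shared peak and 9 a shared promoter peak. AT1G59725, a DNAJ family gene, was highest, enriched 3.17-fold in replicate 1 and 2.04-fold in replicate 2, in a promoter peak on chromosome 1 from 21950124 to 21950482 that was also annotated to the promoter of AT1G59724. A second shared peak over its coding exons and introns was higher in replicate 2, with a mean of 2.29. J3 (AT3G44110) and J2 (AT5G22060), the cytosolic partners of HSC70, had promoter peaks with 2.09- and 2.25-fold for J3 and 1.95- and 2.01-fold for J2. The J3 peak was also annotated to the promoters of AT3G06745 and AT3G44115, and the J2 peak to that of AT5G22070. ATJ1 (AT1G28210) carried 2 shared peaks in its gene body, the stronger with 2.28- and 1.98-fold and summits at the same base. GFA2 (AT5G48030), a mitochondrial J protein gene needed in the female gametophyte, had 2.06- and 1.99-fold over a coding exon and intron.

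At the low end of the class stood ATERDJ3B (AT3G62600), a J protein of the endoplasmic reticulum, with 1.54- and 1.46-fold. Without a shared peak were 7 J protein genes. Among them, AT3G47940 had the strongest peak, a 2.29-fold promoter peak in replicate 1 alone, with a −log10 q of 11.2. Beside the replicate 1 values of the strongest shared peaks, it lies below AT1G59725 with 3.17 and next to ATJ1 with 2.28. No peak was annotated to AT3G47940 in replicate 2.

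**Figure D3:**
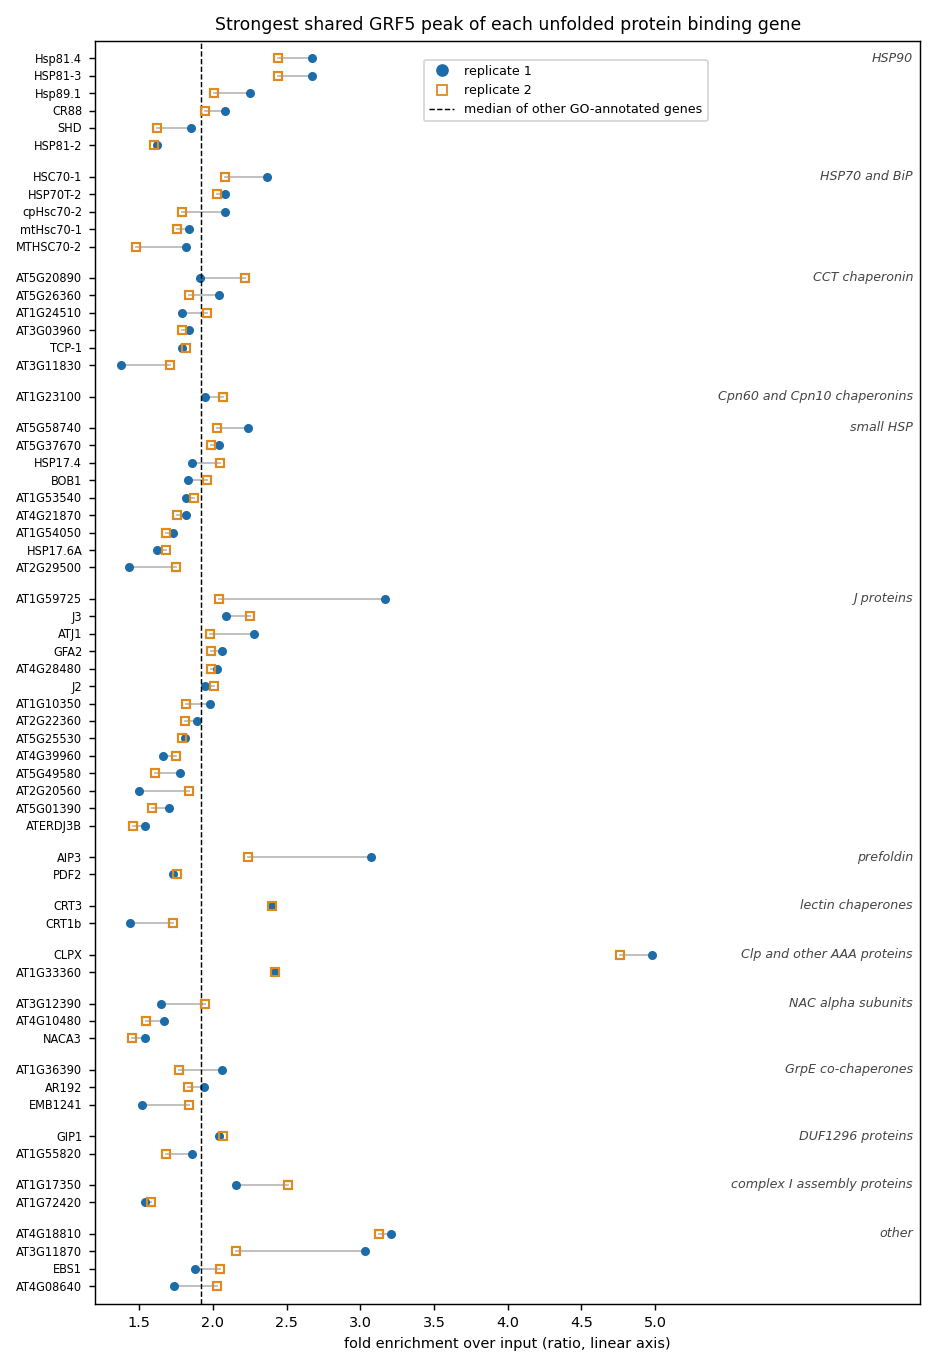
Fold enrichment over input (linear axis) of the strongest shared GRF5 peak of each of the 61 unfolded protein binding genes that had one, by class, in replicate 1 (filled circles) and replicate 2 (open squares); the dashed line is the median of the other GO-annotated genes, 1.92. CLPX stands apart at 4.98 and 4.76, and most genes lie between 1.5 and 2.5 in both lists.

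Small heat shock protein genes, here all genes with an HSP20-type product, had a shared peak in 9 of 11 cases and a shared promoter peak in 6. AT5G58740 was highest with 2.24- and 2.03-fold over coding exons and introns. AT5G37670 had 2.04- and 1.99-fold over its coding exon. HSP17.4 (AT3G46230), a heat-induced cytosolic form, had a promoter peak with 1.86- and 2.05-fold whose other annotated gene, AT3G46240, was named in 1 list only. BOB1 (AT5G53400), which is needed for plant development as well as heat tolerance, had 1.83- and 1.96-fold over coding exons and introns. HSP18.2 (AT5G59720) missed the definition of shared narrowly: its promoter peaks, with 1.56-fold in replicate 1 and 1.59-fold in replicate 2, overlapped by 48.1% of the shorter one. The least overlap among the members' shared peaks was 59.5%, at J3.

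Of 9 CCT family genes, 6 had a shared peak and 4 a shared promoter peak, and the median of their strongest peaks was 1.85. AT5G20890 had 3 shared peaks, the strongest over coding exons and introns with 1.91- and 2.22-fold. AT5G26360 followed with 2.04- and 1.84-fold in its gene body, AT1G24510 with 1.79- and 1.96-fold in its promoter, and AT3G03960 with 1.84- and 1.79-fold in its body. Without a shared peak were AT1G67760, AT3G02530 and AT5G16070.

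The Cpn10-type genes, which encode lids of the organelle chaperonins, had a shared peak in 1 of 4 cases. The other 3 had peaks annotated to them in replicate 2 only, beside 11% of the other GO-annotated genes. AT1G23100, a GroES-like gene, had a shared promoter peak with 1.95- and 2.07-fold and a shared body peak with a mean of 1.91. The mitochondrial CPN10, the chloroplast CHL-CPN10 and AT3G60210 had annotated peaks in replicate 2 alone, up to 1.93-fold at the AT3G60210 promoter. The promoter peak of CHL-CPN10, 1.72-fold in replicate 2, was paired with a 1.81-fold peak in replicate 1 that was annotated to AT2G44660 alone. All 4 members of this class were of the Cpn10 type, so no Cpn60 subunit is described.

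Prefoldin genes gave a strong peak whose height differed between libraries. AIP3 (AT1G08780), which encodes prefoldin 4, was enriched 3.07-fold in replicate 1 and 2.24-fold in replicate 2, with summits 4 bp apart. This peak, on chromosome 1 from 2811060 to 2811384, reached over promoter, coding exon and intron of AIP3 and the promoter of AT1G08790. PDF2 (AT3G22480), prefoldin 2, had 1.73- and 1.76-fold over its coding exon. PFD6 had a 1.55-fold body peak in replicate 1 alone and PFD1 a 2.21-fold promoter peak in replicate 2 alone.

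CRT3 and EBS1 carried the most shared peaks of all members, 4 each, and 2.22% of the members had at least 4, against 1.04% of the others. CRT3 (AT1G08450) encodes a calreticulin and EBS1 (AT1G71220) the glucosyltransferase that marks misfolded glycoproteins, and both are known for retaining a defective brassinosteroid receptor. The strongest CRT3 peak, over a coding exon and intron on chromosome 1 from 2669408 to 2669734, had 2.4-fold enrichment in each list. CRT3 further had 2 shared promoter peaks, with means of 1.85 and 1.65. The 4 shared EBS1 peaks, whose means ran from 1.63 to 1.97, were all in coding exons and introns and none was in its promoter. Between the lists, the summits of these 4 peaks lay 472, 223, 219 and 59 bp apart. Those of the 4 CRT3 peaks lay 212, 12, 52 and 278 bp apart, so not all of them mark the same position in both lists. CRT1b (AT1G09210), another calreticulin gene, had a single shared peak with 1.44- and 1.73-fold and summits 507 bp apart.

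The remaining classes covered the nascent polypeptide-associated complex, GrpE proteins and others. Among the 5 alpha subunit genes of that ribosome-bound complex, 3 had a shared peak, with means up to 1.8 at AT3G12390, which had 1.65- and 1.95-fold. AT4G10480 had 1.67- and 1.55-fold and NACA3 1.54- and 1.45-fold, while NACA5 and NACA2 had annotated peaks in replicate 1 alone. The coding exon peak of NACA5, 2.02-fold in replicate 1, was paired with a 2.22-fold peak in replicate 2 that was annotated to AT1G33030 and AT1G33050. Of 4 GrpE genes, 3 had a shared peak: AT1G36390 with 2.06- and 1.77-fold, AR192 with 1.94- and 1.83-fold and EMB1241 with 1.52- and 1.84-fold. MGE1, of mitochondria, had promoter peaks 1106 bp apart.

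GIP1 (AT3G13222), which binds a G-box factor, had 2.04- and 2.07-fold in its gene body, with summits 453 bp apart. Its relative AT1G55820 had a strongest shared peak with 1.86- and 1.68-fold. A far stronger peak, from 20867394 to 20868493 on chromosome 1 in replicate 1, was annotated to its coding exon and to AT1G55830 there, with 4.43-fold. In replicate 2 the paired peak, with 3.9-fold and its summit 8 bp away, was annotated to AT1G55830 alone, so it is not counted for AT1G55820. AT3G07660 had 4 peaks in replicate 1, up to 2.19-fold, and none in replicate 2. The complex I assembly gene AT1G17350 had 2.16- and 2.51-fold over coding exons and introns, and AT1G72420 had 1.54- and 1.58-fold.

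Genes outside these families held another strong site. AT4G18810, annotated as a Rossmann-fold protein, was enriched 3.21-fold in replicate 1 and 3.13-fold in replicate 2 over its coding exons and introns, on chromosome 4 from 10324042 to 10325105, with summits 7 bp apart and no other gene annotated. AT3G11870, annotated as an IRE1-like protein, had a promoter peak with 3.03- and 2.16-fold, also annotated to the promoter of AT3G11880. AT4G08640 had 1.74- and 2.03-fold in its promoter.

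**Figure D4:**
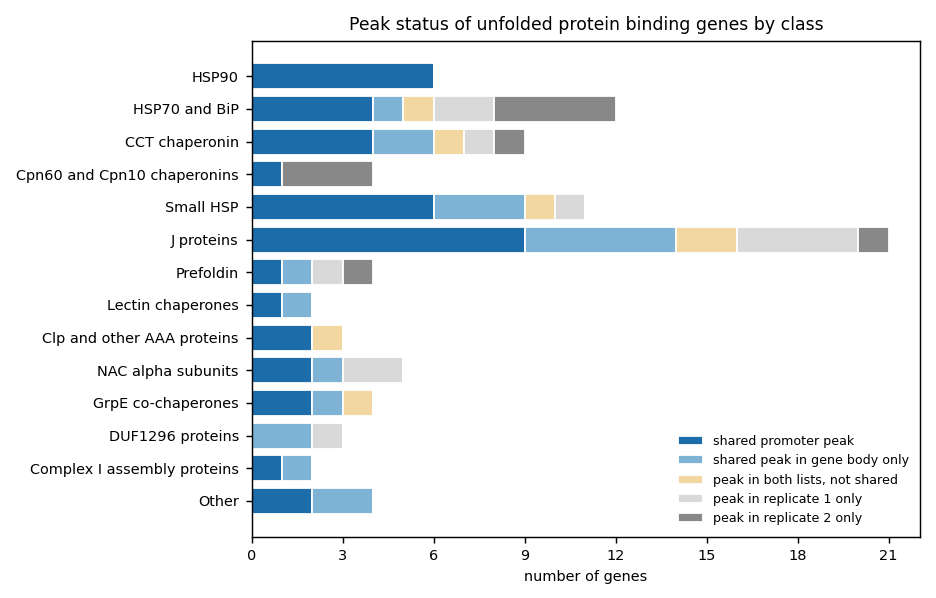
Number of unfolded protein binding genes per class by peak status: a shared promoter peak, a shared peak in the gene body only, peaks in both lists that were not shared, or peaks in a single list. All 6 HSP90 genes had a shared promoter peak, and 7 of 12 HSP70 and BiP genes had no shared peak.

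The libraries gave similar values at most member peaks. Of the 89 distinct shared peaks of members, 48 were higher in replicate 1 and 41 in replicate 2. The log2 ratio of replicate 2 over replicate 1 had a median of -0.03 and an SD of 0.18, against 0.01 and 0.19 for the other GO-annotated genes. Both members whose shared peak was at least 3-fold in each list, CLPX and AT4G18810, had log2 ratios of -0.07 and -0.04. The 3 shared peaks that were at least 3-fold in replicate 1 but not in replicate 2, at AT1G59725, AIP3 and AT3G11870, had log2 ratios of -0.63, -0.46 and -0.49. These 3 were picked here for a high value in replicate 1, so the direction of their difference follows from that choice. In the other direction the promoter peak of AT5G26360 had the highest log2 ratio, 0.46.

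**Figure D5:**
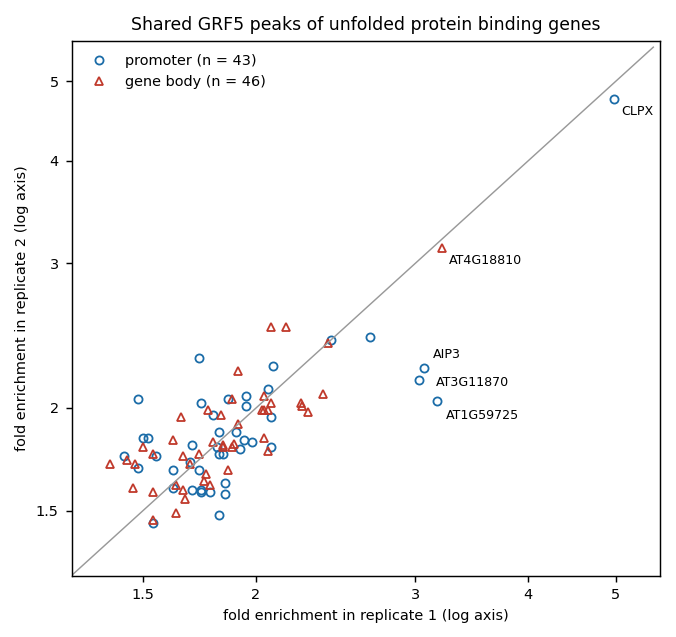
Fold enrichment in replicate 1 (x axis, log) against replicate 2 (y axis, log) of the 89 distinct shared GRF5 peaks of unfolded protein binding genes, as peaks that touch the promoter (circles) or the gene body only (triangles); the line marks equal values. CLPX and AT4G18810 lie near the line, and AIP3, AT3G11870 and AT1G59725 lie below it.

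Of all member peaks, 65.7% in replicate 1 and 68.7% in replicate 2 had a partner in the other list, against 67.4% and 70.6% for the other GO-annotated genes. Summits of 55 of the 89 shared peaks (61.8%) lay within 100 bp, against 64.1% for the others. Many peaks were annotated to several genes: of the 91 pairings of a member with a shared peak, 59 (64.8%) also named another gene, against 57.7% for the others. Among the 45 pairings with a promoter, 24 lay over a coding exon or intron of a neighbouring gene, as at CLPX, cpHsc70-2 and HSP81-2. This was not counted for the others, so it is not known to be particular to the members. When only peaks that named a single gene in each of the lists were counted, 5 members (5.56%) kept a shared promoter peak, against 12.2% of the others.

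Annotations that the choice did not use divided the members as follows. Protein folding was annotated to 74 of the 90, ATP binding to 45 and response to heat to 30. Of the heat-response members, 22 of 30 (73.3%) had a shared peak and 15 (50%) a shared promoter peak, against 39 of 60 (65%) and 26 (43.3%) of the members without that term. Other genes with the heat term stood at 67.2% and 36.1%. The strongest peaks of heat-response members had a median of 1.92, against 1.87 for members without the term and 1.87 for other genes with it. Members annotated to the mitochondrion had a shared peak in 18 of 23 cases (78.3%), and those annotated to the chloroplast in 9 of 16 (56.2%). For the other genes with these terms the shares were 68.4% and 69.3%. Members annotated to the nucleus had one in 9 of 19 cases (47.4%), against 73.8% of the other genes with that term. For the endoplasmic reticulum the count was 8 of 11 (72.7%), against 72.1%, and for its lumen 5 of 8 (62.5%), against 73.1%. For the cytosol it was 28 of 42 (66.7%), against 70.6%, and for the cytoplasm 33 of 52 (63.5%), against 73.1%. For ATP binding it was 28 of 45 (62.2%), against 74.5%, while a shared promoter peak was present at 22 (48.9%), against 41.8%. These terms overlap and hold few members each, and no difference between them was tested.

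Regulators and partners of chaperones, from lists that contain no member, had a shared peak in 46.2% to 71.4% of cases per list, beside 54.4% of all nuclear protein-coding genes. Of 21 heat stress transcription factor genes, which switch on chaperone genes under heat, 15 (71.4%) had a shared peak and 8 (38.1%) a shared promoter peak, beside 35.2% of protein-coding genes. HSFA1D had 2.38- and 2.13-fold enrichment in an intron, HSFB4 2.47- and 1.93-fold in its promoter, HSFA3 1.85- and 2.07-fold in an intron and HSFA2 1.96- and 1.88-fold over a coding exon and intron. The median of their strongest peaks was 1.83, with no value at 3-fold.

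For the unfolded protein response of the endoplasmic reticulum, 6 of 9 genes (66.7%) had a shared peak and 3 a shared promoter peak. The transcription factor gene BZIP60 had 2.13- and 2.21-fold and BZIP49 1.95- and 2.05-fold, both in the gene body. NAC062 had 2.17- and 1.98-fold over a coding exon, and BAG7 1.7- and 1.75-fold in its promoter. The sensors IRE1A and IRE1-1 and the factor BZIP28 had no peak in either list.

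Of 13 co-chaperone and disaggregase genes, 6 (46.2%) had a shared peak and 2 (15.4%) a shared promoter peak. The p23-type genes AT4G02450 and AT3G03773 had 2.07- and 2.05-fold and 1.93- and 2.15-fold, Hop3 1.96- and 1.81-fold and SGT1A 1.77- and 1.91-fold. HSP101, the disaggregase that rescues aggregated proteins after heat, had a peak in replicate 1 alone. The median of the strongest peaks was 1.86 in this list and in that of the unfolded protein response, with 6 genes behind each.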

How the data were processed

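The authors deposited a peak list for each GRF5 replicate, called against the shared input. The submitters' processing notes name Trimmomatic 0.39, Bowtie2 2.4.6, MACS2 2.2.7.1 and TAIR10; their settings were not given. Per the file headers, each peak carries its pileup signal, a fold enrichment ratio over the input, and −log10 p and −log10 q as MACS2 writes them. Scaling of the pileup is not stated. Deposited starts count from 0, so 1 was added.

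Entries were collapsed to 28349 and 27054 nuclear peaks and paired one to one, most overlap first, giving 19008 shared peaks. Simulated lists with 1500 true pairs returned all 1500. Each simulated copy was moved too little to miss the overlap rule and had no close competitor. The run therefore checked the code alone and not the pairing of real peaks. A gene had a shared peak, or a region, when both lists gave it. The authors' region classes were used. Symbols came from the RefSeq table of TAIR10.1, which matched all 90 locus tags; its coordinates were not used. Gene lengths and sequences were not used here, so planned motif and protein descriptions were not made. Python 3.11.15, numpy 2.4.6, pandas 2.3.3 and matplotlib 3.10.9 were used.

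Genes were sorted into 14 classes by product text and names. The GrpE, alpha subunit, DUF1296 (GIP1 and its relatives) and complex I classes, and GFA2 as a J protein, were set after the members were listed. Named genes were up to 4 strongest per class, the 8 with most shared peaks, the 8 strongest promoters, pairs under 1 peak and members without shared peaks in classes with 5 or fewer such genes. Up to 4 genes per list of regulators were named by strength. HSP70, BiP and J protein genes without shared peaks, the lowest values of a class, the 4.43-fold peak of AT1G55820 and other peaks annotated to a member in 1 list only, BZIP28, IRE1A, IRE1-1 and HSP101 were named after their values were seen. Members and lists were chosen with earlier results of these data known. Labels call the libraries biological replicates without saying what was prepared separately, so their spread may be technical. Alternatives changed the overlap, the q threshold, peaks of several genes, the annotation required and the list used.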

Additional observations from a re-analysis of the deposited data

How the results depend on the processing

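No paired analysis was possible because the GRF5 replicates form 1 group and the input library has no list. For any shared peak and for promoter peaks, counting only peaks of 1 gene set the members farthest from the others. The shares were 25.6% against 29.2% for any shared peak and 5.56% against 12.2% for promoters. Gene body peaks of replicate 1 alone differed more, at 68.9% of the members against 56.3% of the others. Keeping only peaks with a −log10 q of at least 5 left 33 members (36.7%) with a shared peak, against 7519 of the others (35.6%). In promoters it left 18 members (20%), against 4495 of the others (21.3%). In gene bodies it left 21 members, and the others were not counted there. The members then had a median strongest fold of 2.06 and a median of 0 shared peaks. Counting only peaks of 1 gene left 23 members with any shared peak, 5 in promoters and 19 in gene bodies, and a median of 0 shared peaks. Of the others it left 6173 with any shared peak and 2573 in promoters. With summits within 100 bp, 25 members (27.8%) had a shared promoter peak, against 31% of the others. The median fold of the members was then 1.95 and their median number of peaks 0.5. Overlap of 50% of the longer peak gave a median fold of 1.88. With each list alone, 80 members (88.9%) had a peak in replicate 1 and 78 (86.7%) in replicate 2, against 18807 (89%) and 18264 (86.4%) of the others. Promoter peaks were at 53 members (58.9%) and 55 (61.1%), against 13552 (64.1%) and 12909 (61.1%) of the others. Gene body peaks were at 62 members (68.9%) and 55 (61.1%), against 56.3% and 54% of the others. The median fold of the members was 1.88 to 1.93, and the median number of peaks per member 1 to 1.5. A stricter setting leaves fewer peaks by construction. Another alternative, chosen after seeing the data, took the gene and region of a paired peak from either list. It gave 65 members (72.2%) with a shared peak, against 15125 of the others (71.6%), with the same median fold of 1.9. In promoters it gave 45 members (50%), against 10148 of the others (48%). In gene bodies it gave 43 members, and the others were not counted there. For a named gene each list alone gives only that list's value, so these say nothing about stability; AT1G59725 moved most, with 3.17 without replicate 2 and 2.04 without replicate 1. Read totals were not used and the pileups do not give depth, so the depth of the libraries is not known here.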
